A study of Mus musculus with 21 samples.

Results

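The comparison described here sets mouse embryonic stem cells before differentiation against the aggregates grown from them for 5 days without ascorbic acid. Its members were taken by their titles, as the 3 arrays of undifferentiated cells and the 3 arrays of untreated day 5 aggregates, 6 of the 21 arrays in the series. Both groups come from CGR8, a mouse embryonic stem cell line. The day 0 cells are labelled as grown in 10% GMEM and the day 5 aggregates in 20% IMDM, and neither group received ascorbic acid. Aggregates (embryoid bodies) were started as hanging drops holding 500 cells in 25 µL and were kept on a horizontal shaker after day 2. Total RNA was extracted with Trizol, and 100 ng per sample was labelled as biotinylated cRNA for an Affymetrix mouse array. Experiments were carried to the arrays only if treated cultures went on to show more beating than untreated ones, so the cultures are a selected set, and this holds for the untreated ones too.

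As a model the comparison rests on 1 cell line. An aggregate is a mixture of cell types, while the day 0 culture is meant to be nearly pure. Medium, cell density, aggregation and time all differ between the groups and cannot be told apart. In such bulk RNA, fewer cells of a type and less RNA per cell cannot be told apart either. Levels below are RMA log2 signals, on which a difference of 1 is a doubling, and a difference is always day 5 minus day 0 with the standard error of the fit. The file holds no detection calls, and a low signal is not shown to exceed background. Ptprc, the defining surface phosphatase of white blood cells, averaged 3.93 at day 0, and Csf1r, the macrophage growth factor receptor, averaged 7.05. The brightest probe set stands for a gene. Of the 126 genes named by rule and called that have others, 100 had another called and 26 had none, never in the opposite direction, and in 67 another differed by over 1 log2 unit, so sizes hold for 1 probe set. Because each probe set has its own background and RMA compresses changes of low signals, a fold is a fold of signal, and levels of different genes were not compared.

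Embryonic stem cells keep an unspecialised state through a set of transcription factors, among them Pou5f1 (Oct4), Sox2 and Nanog, that sustain each other's expression. When the factors that hold this state are withdrawn and the cells are let to aggregate, they pass through a state like the early epiblast and then form mesoderm, endoderm and ectoderm, much as the embryo does in gastrulation. Mesoderm gives rise to heart, blood, vessels and connective tissue, and the first cardiac cells appear from it before any beating is seen.

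The 6 arrays were not equally alike. Across genes, day 0 replicate 1 correlated with the other day 0 arrays at r = 0.969 and 0.966, while those 2 correlated with each other at 0.989. The day 5 arrays correlated among themselves at 0.989 to 0.992. Day 0 replicate 1 was the day 0 array nearest to day 5 in 2693 of the called genes (49.5%). It read lowest of the day 0 arrays in all 6 stem cell markers (Pou5f1, Sox2, Nanog, Zfp42, Esrrb and Klf4) and highest in the 3 primed epiblast markers (Fgf5, Otx2 and Pou3f1). Every list and named gene was refitted without it. Of 394 called list members and named genes, 25 lost their call without it, 27 moved by over 1.5-fold and 0 changed sign. Those described below are given both ways. Among the list members and named genes that were not called, 33 gained a call without it. Of all other arrays, leaving out 1 cost 33 to 45 calls, gained 4 to 21 and moved 0 to 8 called values that far. The 3'-to-5' signal ratio of the Actb, Gapdh and Tfrc control probe sets, a sign of RNA quality, overlapped between the groups, with Actb at 0.79 to 0.87 at day 0 and 0.85 to 0.94 at day 5 (log2).

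Of 18193 genes tested with limma, 2890 (15.9%) were higher at day 5 and 2549 (14%) were lower, at a Benjamini-Hochberg adjusted p under 0.05. That is 5439 genes, or 29.9%, in either direction. A fit of the 6 arrays alone, without the spread of the other groups, gave 1987 higher and 1433 lower. Among all genes the median difference was -0.04. The changes reached far: 301 genes rose and 223 fell at least 4-fold, and 16 rose and 14 fell at least 32-fold. In 2642 of the higher and 2213 of the lower genes the 3 and 3 values did not overlap. The same held for 6239 of all 18193 genes, and for 1384 of the 12754 genes that were not called. Separate groups were also a condition for the largest rises and falls listed below, so their separation adds no evidence of its own. The median level of the higher genes was 7.64 at day 0, 7.74 at day 2, 8.16 at day 3 and 8.80 at day 5. For the lower genes it went from 8.22 through 7.83 and 7.69 to 7.20. In both sets the step between days 3 and 5 was the largest of the 3 steps by its median (0.43 for the higher and -0.36 for the lower genes), over a span that is also longer than that from day 2 to day 3.

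**Figure D1:**
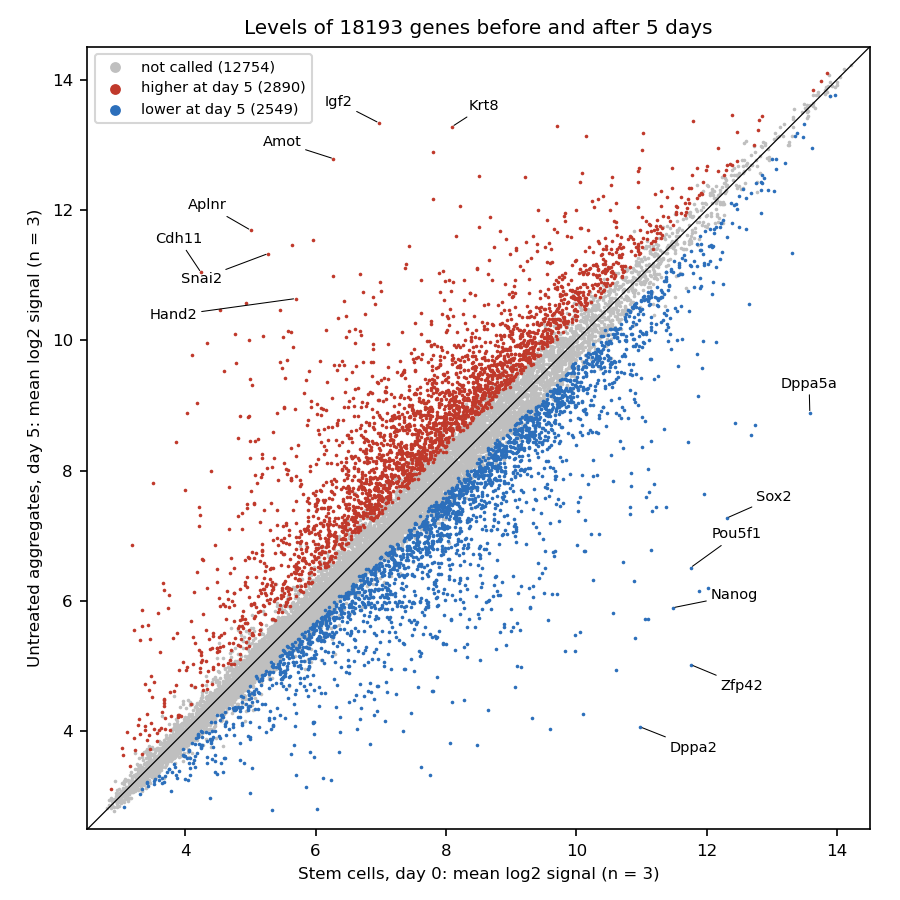
Each point is a gene, placed by its mean log2 signal over the 3 day 0 arrays (x axis) and the 3 untreated day 5 arrays (y axis), with the diagonal marking equal levels. The 2890 genes called higher are red, the 2549 called lower are blue, and a set of named genes is labelled. Igf2 and Krt8 reach above 13 at day 5, and Dppa2 drops from about 11 to about 4.

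Among the 15 largest falls the first pair were Dppa2, a chromatin protein of the preimplantation embryo, and Zfp42 (Rex1), a zinc finger protein used as a marker of the ground state. Dppa2 read 10.58, 10.76 and 11.61 at day 0 and 4.40, 3.96 and 3.84 at day 5, a fall of 121-fold (-6.92 ± 0.43, adjusted p = 3.49e-10). Zfp42 read 10.91, 12.08 and 12.30 against 4.96, 5.54 and 4.56 (-6.74 ± 0.30, adjusted p = 2.12e-12). Both groups lay more than 5 log2 units apart in each gene. Further down the list stood Morc1 (-5.84), Tdgf1 (-5.82), L1td1 (-5.73), Nr0b1 (-5.68), Nanog (-5.59), Mymx (-5.57), Fbxo15 (-5.47), Trap1a (-5.38), Dnmt3l (-5.33), Pou5f1 (-5.24), Mageb16 (-5.11), Sox2 (-5.04) and Tcl1 (-4.76). Without day 0 replicate 1 the order of the first pair turned (Dppa2 -7.12, Zfp42 -7.17), and several falls deepened by over 1.5-fold: Morc1 to -6.77, Nr0b1 to -6.58, Mymx to -6.44, Tcl1 to -6.12 and Trap1a to -5.98. Without day 0 replicate 3 Morc1 (-5.25), Nr0b1 (-5.08) and Tcl1 (-4.11) were shallower, as was Tcl1 without day 0 replicate 2 (-4.04). Sox2 read -4.39 without day 5 replicate 3. All of these kept their call.

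The 15 largest rises were led by Cdh11, a cadherin of mesenchymal cells, and Aplnr, the apelin receptor of early mesoderm and vessels. Cdh11 read 4.95, 3.78 and 3.99 at day 0 and 10.75, 11.02 and 11.36 at day 5 (112-fold, 6.80 ± 0.81, adjusted p = 1.86e-06). The standard deviation of Cdh11 was 0.62 at day 0 and 0.31 at day 5, but 2.19 at day 3, which also enters its error. Aplnr read 5.28, 4.65 and 5.08 against 11.01, 11.91 and 12.15 (103-fold, 6.69 ± 0.76, adjusted p = 1.01e-06). The other members were Amot (6.51), Igf2 (6.37), Snai2 (6.06), Rgs5 (5.94), Nrp1 (5.82), Pkdcc (5.68), Zfp711 (5.64), Ets1 (5.64), Pmp22 (5.58), Asb4 (5.33), Krt8 (5.18), Krt18 (5.08) and Pdgfra (5.02). A second probe set of Cdh11 differed by 3.73 and one of Aplnr by 2.11, so the direction was shared and the size was not. Of Amot's further probe sets, 1 rose by 0.79 and the other differed by 0.17 (adjusted p = 0.398), and its brightest rose by 7.18 without day 0 replicate 1. In the ascorbic acid arrays of day 5, these 30 leading genes stood within 1 log2 unit of their untreated level, from -0.55 to 0.47.

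The promoters of the first pair of rises and the first pair of falls that had an entry in the RefSeq promoter table (GRCm38.p6) are shown because these genes mark the ends of the change. Each runs 5′ to 3′ from 250 bases before to 50 bases after the annotated start. Igf2 has 4 entries, of which 1 is shown. No entry was found for Cdh11, Aplnr, Dppa2 and Morc1. Capitals mark matches, on either strand, to any of 5 motifs. TGCAAAT is part of the octamer that POU factors such as Pou5f1 bind, CATTGTT is bound by Sox factors, and CACCTG is the E-box of Snail factors. AGATAA is bound by the GATA family of zinc finger factors, and the general promoter element known as the TATA box was searched as TATAAA.
Amot, chrX:145487590-145487889, minus strand: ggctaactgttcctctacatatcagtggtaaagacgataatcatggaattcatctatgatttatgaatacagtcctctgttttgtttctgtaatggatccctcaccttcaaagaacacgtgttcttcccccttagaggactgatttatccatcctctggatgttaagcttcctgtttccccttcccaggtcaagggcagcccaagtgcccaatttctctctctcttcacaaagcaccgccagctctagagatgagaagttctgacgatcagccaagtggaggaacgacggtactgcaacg
Igf2, chr7:142666767-142667066, minus strand: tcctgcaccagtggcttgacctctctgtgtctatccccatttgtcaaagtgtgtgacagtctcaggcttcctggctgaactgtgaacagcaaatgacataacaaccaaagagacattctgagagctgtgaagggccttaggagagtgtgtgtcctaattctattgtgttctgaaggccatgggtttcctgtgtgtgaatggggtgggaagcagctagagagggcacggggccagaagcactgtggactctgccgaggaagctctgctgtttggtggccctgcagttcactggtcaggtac
Zfp42, chr8:43306960-43307259, minus strand: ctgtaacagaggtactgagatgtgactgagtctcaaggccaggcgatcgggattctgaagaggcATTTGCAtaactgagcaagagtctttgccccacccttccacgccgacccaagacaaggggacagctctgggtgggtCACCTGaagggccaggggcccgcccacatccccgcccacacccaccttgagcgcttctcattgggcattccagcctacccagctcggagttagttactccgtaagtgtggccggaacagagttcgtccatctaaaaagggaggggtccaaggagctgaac
Tdgf1, chr9:110946109-110946408, minus strand: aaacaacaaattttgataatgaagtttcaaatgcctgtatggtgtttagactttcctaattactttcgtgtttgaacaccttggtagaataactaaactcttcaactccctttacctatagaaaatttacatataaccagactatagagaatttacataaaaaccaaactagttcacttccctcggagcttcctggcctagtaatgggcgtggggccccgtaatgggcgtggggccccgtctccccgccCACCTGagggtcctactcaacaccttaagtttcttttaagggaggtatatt

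The Zfp42 window held the octamer part on the opposite strand, 186 bases before the start, and a Snail E-box 110 bases before it. Tdgf1 held a Snail E-box whose first base lies 1 base before its start. Neither Amot nor Igf2 held any of the 5 motifs, which says only that these letters are not in those windows. Of all 32851 promoters of the table, 4.02% held TGCAAAT, 3.78% CATTGTT, 20.2% CACCTG, 11.2% AGATAA and 13.6% TATAAA. Among promoters of the genes tested the shares were 3.25%, 2.58%, 20%, 8.09% and 9.77%. Among those of called genes, TGCAAAT stood in 2.95% for lower and 2.3% for higher genes, and CACCTG in 22.1% and 15.7%, with no test of these shares. In the same order CATTGTT stood in 2.11% and 2.23%, AGATAA in 6.51% and 6.39%, and TATAAA in 8.5% and 7.32%. The sets also differed in base content, with a median of 18 and 21 CG pairs per promoter against 16 for genes tested. A match is a description of letters and not a binding site.

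Nearly the whole naive pluripotency list, the factors and targets of the ground state, was lower at day 5. Of 22 measured members, 20 fell, 0 rose and 2 did not pass, with a median difference of -2.83 against -0.04 over all genes. Nanog, a homeobox factor of this state, read 10.61, 11.90 and 11.94 at day 0 and 5.46, 6.10 and 6.13 at day 5 (48.1-fold lower, adjusted p = 4.12e-10). Its path was not even, since the group mean was 9.59 at day 2 and 11.53 at day 3. Klf4, a Krüppel-like factor, read 10.00, 11.09 and 11.43 against 7.39, 7.63 and 8.29 (-3.07 ± 0.31) and had stood lower still at days 2 and 3 (6.54 and 6.09). Esrrb, a nuclear receptor that keeps self-renewal, read 7.74, 8.15 and 9.57 against 6.59, 6.54 and 6.54 (-1.93 ± 0.29). Its other probe sets fell by 1.68 and by 4.13, the latter from a mean of 10.01 to 5.88. In all 3 genes every day 5 array read below every day 0 array. The members that did not pass, named after their values were seen, were Tbx3 (-0.22, 95% interval -1.19 to 0.74) and the LIF receptor Lifr (0.20, -0.47 to 0.86). Without day 0 replicate 1 both were called lower (Tbx3 -1.04, adjusted p = 0.0139, Lifr -0.43, adjusted p = 0.0439), and all 22 members with them.

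Factors shared by naive and later pluripotent cells also fell, in 16 of 19 measured members with 0 rises and a median of -2.52. A fit of the 6 arrays alone gave 15 falls and 1 rise in this list. Pou5f1 read 11.26, 11.88 and 12.13 at day 0 and 6.18, 6.73 and 6.63 at day 5 (37.9-fold lower, -5.24 ± 0.25, adjusted p = 7.08e-12). Its group means were 11.51 at day 2 and 11.65 at day 3, so nearly all of the difference lay after day 3. The same shape held for Tdgf1 (Cripto), the Nodal co-receptor, with group means of 12.02, 11.64, 11.82 and 6.20, and for L1td1, an RNA-binding protein, with 11.89, 11.68, 11.60 and 6.16. Sox2, partner of Pou5f1 on DNA, read 12.20, 12.37 and 12.36 against 7.87, 7.96 and 5.99 (-5.04 ± 0.43), and day 5 replicate 3 lay well below the other day 5 arrays. Lin28a (0.59, 95% interval -0.06 to 1.24), Trim71 (0.08, -0.18 to 0.34) and Lin28b (-0.12 ± 0.19), named after their values were seen, did not pass. All 3 belong to the pathway that controls let-7 microRNAs and developmental timing.

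**Figure D2:**
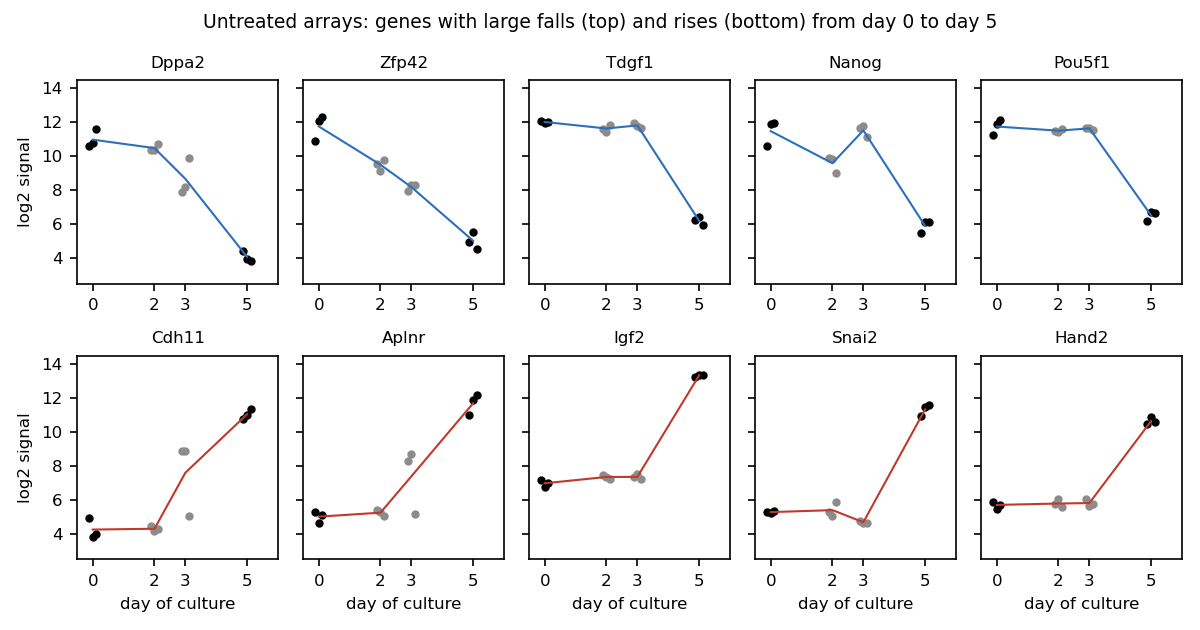
Log2 signal (y axis) of 5 genes with large falls (top, blue lines) and 5 with large rises (bottom, red lines) in untreated arrays against the day of culture (x axis). Points are single arrays, black for days 0 and 5 and grey for days 2 and 3, and lines join group means. Pou5f1 and Tdgf1 stay near their day 0 level through day 3, Zfp42 declines at each step, and Igf2, Snai2 and Hand2 rise only after day 3.

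Germ cell and meiosis genes, some of which stem cells express, fell in 14 of 20 measured members and rose in 0 (median -1.41). The count of rises is 1 without day 0 replicate 2. Mael, a piRNA pathway protein, read 7.83, 8.61 and 7.76 at day 0 and 3.76, 3.76 and 3.93 at day 5 (-4.25 ± 0.49). Ddx4, the germ cell helicase Vasa, read 7.68, 8.14 and 7.02 against 3.46, 3.28 and 3.60 (-4.17 ± 0.27), and was still at 7.83 at day 3. Other large falls were those of Stk31 (-3.21) and Tex19.1 (-2.83). All 3 day 5 arrays lay below all 3 day 0 arrays in each of these genes. Of 9 measured genes of the rare 2-cell-like state, 4 fell and 0 rose, a count that is 2 without day 0 replicate 1 and 2 without day 5 replicate 3. Those were Zfp42, Usp17la (-1.23), Tcstv1 (-0.50) and Tcstv3 (-0.37). The arrays that decide the count did so through Usp17la (adjusted p = 0.132 and 0.0782 without them) and Tcstv3 (0.0681 and 0.0637), and Usp17la was also lost without day 0 replicate 3 (0.0681).

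Chromatin genes moved in both directions. In the DNA methylation list 9 of 19 measured members fell and 1 rose, or 3 without day 0 replicate 1 (median -0.27). Dnmt3l, the cofactor of the de novo methyltransferases, read 10.49, 11.22 and 11.47 at day 0 and 6.24, 5.80 and 5.14 at day 5 (-5.33 ± 0.42, adjusted p = 8.05e-09). The dioxygenases Tet1 (-2.87 ± 0.23) and Tet2 (-2.29 ± 0.30), which oxidise methylcytosine and use ascorbic acid as a cofactor, fell with it, as did Gadd45a (-3.28). Uhrf2 rose by 1.53. The methyltransferases themselves, named after their values were seen, ended near where they began: Dnmt3a had group means of 8.85, 11.00, 9.83 and 8.81, and Dnmt3b of 11.06, 12.91, 12.89 and 10.89. Their net intervals were -0.54 to 0.45 and -0.78 to 0.46. Dnmt3b turned on day 0 replicate 1, which read 12.27 against 10.54 and 10.36, and without it was called higher (0.44, adjusted p = 0.00982).

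Polycomb genes, which encode 2 repressive complexes, held 6 rises and 8 falls among 20 measured members (median -0.09). Here paralogs of a subunit stood on opposite sides. Phc1, a polyhomeotic subunit, read 11.96, 11.82 and 11.81 against 9.01, 9.24 and 9.17 (-2.72 ± 0.15), while Phc2 read 7.63, 7.49 and 7.72 against 9.99, 10.12 and 10.20 (2.49 ± 0.27). Among the chromobox readers, Cbx7 fell by 2.51 ± 0.20 and Cbx2 rose by 1.27 ± 0.18, but this rests on their brightest probe sets. Cbx7's others differed by -0.21 and 0.17 and Cbx2's by 0.16, none of them called. Jarid2 (-1.96) and Eed (-1.55), parts of the methylating complex, fell, while Eed's other probe set differed by 0.07 and was not called. The catalytic subunit Ezh2, named after its values were seen, differed by -0.05 (95% interval -0.40 to 0.30) and was called lower without day 0 replicate 1 (-0.35, adjusted p = 0.0207).

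Genes that specify heart-forming mesoderm were higher at day 5 in 13 of 20 measured members, with 0 falls and a median of 1.37. Pdgfra, a receptor of early mesoderm, read 5.27, 5.46 and 5.61 at day 0 and 10.21, 10.82 and 10.37 at day 5 (32.5-fold, 5.02 ± 0.42, adjusted p = 1.89e-08). Hand2, a transcription factor of the heart and limb fields, read 5.89, 5.48 and 5.71 against 10.49, 10.86 and 10.57 (30.8-fold, 4.95 ± 0.18), although its 2 other probe sets differed by only 0.44 and 0.45. Pdgfra's others rose by 1.35 and 1.28. Bmp2, an inducer of cardiac fate, rose from 4.10, 4.13 and 3.86 to 8.88, 9.14 and 8.62 (4.85 ± 0.38). No day 5 value of these 3 genes came near a day 0 value. Foxf1, a factor of lateral mesoderm, rose by 3.78 and its other probe set by 0.90. Gata6 rose by 3.35, and its others by 2.36 and, without a call, 0.11, with Gata4 rising by 0.69 ± 0.16. At days 2 and 3 the Hand2 means were 5.78 and 5.80 and the Foxf1 means 6.95 and 6.63, inside or near the spread of their day 0 arrays.

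Muscle genes of the beating cell itself were mostly not called by their brightest probe set. In the cardiomyocyte list 4 of 22 measured members rose and 2 fell (median -0.08), near the shares over all genes, and the 4 become 2 without day 0 replicate 2, without day 5 replicate 1 or without day 5 replicate 2. Tnnc1, troponin C of heart and slow muscle, read 6.14, 6.18 and 5.91 at day 0 and 8.57, 8.41 and 8.34 at day 5 (2.36 ± 0.16, adjusted p = 1.55e-09). Tnni1, the troponin I of the embryonic heart, read 6.64, 6.26 and 6.58 against 8.52, 9.51 and 8.89 (2.48 ± 0.28). Both calls held whichever array was left out. The markers Nkx2-5 (-0.08, 95% interval -0.46 to 0.30) and Myh6 (-0.27, -1.38 to 0.84) did not pass. Myl3 (0.37) and Myh7 (0.96) passed with all 6 arrays, and neither passed without day 0 replicate 2, day 5 replicate 1 or day 5 replicate 2 (adjusted p = 0.0769 to 0.231). Myl3 was also lost without day 0 replicate 1 (0.0844) and Myh7 without day 0 replicate 3 (0.0594). The falls were Actn2 (-0.78) and Atp2a2 (-0.40).

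Tnnt2, the cardiac troponin T, depends on the probe set. The brightest one, which stands for the gene here, read 5.81, 5.41 and 5.59 at day 0 and 5.71, 5.51 and 5.56 at day 5 (-0.01, 95% interval -0.24 to 0.22). Another read 3.20, 3.19 and 3.16 against 7.10, 7.72 and 4.11 (3.13 ± 0.85, adjusted p = 0.00865 over all probe sets), and the last rose by 2.01 ± 0.65 (adjusted p = 0.0268). In the second probe set day 5 replicate 3 lay far below the other day 5 arrays. Gata5 and Myocd, cardiac regulators that were not called by their brightest probe set, likewise had 1 called higher (1.11 and 1.56). Over all lists, 38 of 355 members that were not called had another probe set that was, among the 194 with another probe set.

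Genes of smooth muscle and the actin cytoskeleton rose in 6 of 13 measured members and fell in 0 (median 0.36). Acta2, smooth muscle actin, read 7.29, 5.82 and 6.99 at day 0 and 8.59, 9.72 and 8.62 at day 5 (2.28 ± 0.33). Its 2 other probe sets, not called, differed by -0.08 and -0.14. Caldesmon (Cald1) rose by 2.30 and tropomyosin 1 (Tpm1) by 1.97. Day 0 replicate 1 was the highest day 0 array in all 3. The late markers Myh11 (-0.30 ± 0.12) and Cnn1 (0.15 ± 0.20), named after their values were seen, did not pass, although Cnn1 was called higher without day 0 replicate 1 (0.47, adjusted p = 0.0317).

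Of the blood and endothelium list, 10 of 24 measured members rose and 2 fell (median 0.47). Kdr, the VEGF receptor that marks the common precursor of blood and vessels, read 7.86, 7.35 and 7.65 at day 0 and 10.49, 10.69 and 10.08 at day 5 (7-fold, 2.80 ± 0.21, adjusted p = 5.34e-09). Tal1, the factor that starts blood formation, read between 5.52 and 5.60 at day 0 against 8.26, 8.14 and 7.45 (2.39 ± 0.15). The embryonic globin Hbb-bh1 read 5.42, 5.47 and 5.48 against 10.02, 11.16 and 7.81 (4.21 ± 0.59). The groups did not overlap in any of the 3, but the day 5 arrays spread over more than 3 log2 units in the globin, with replicate 3 lowest, and the difference was 5.13 without that array and 3.46 without day 5 replicate 2. Gata1, the erythroid master factor, differed by 0.09 (95% interval -0.20 to 0.39). The falls were Cd34 (-1.34) and Pecam1 (-0.60). Pecam1 overlapped between the groups and lost its call on leaving out any array but day 0 replicate 1 (adjusted p = 0.0703 to 0.29), so the list had 1 fall without day 0 replicate 2 or 3 or day 5 replicate 2 or 3. The rise of Cdh5 (1.53) was lost without day 5 replicate 1 (adjusted p = 0.0831) or replicate 2 (0.0915), was 2.17 without replicate 3, and was not seen in its other probe set (-0.39, adjusted p = 0.141).

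Other mesoderm regulators, of limb, somite, kidney and skull, rose in 11 of 20 measured members and fell in 1 (median 0.49). Msx1, a homeobox target of BMP signalling, read 7.52, 6.81 and 7.97 against 10.87, 11.40 and 12.08 (4.02 ± 0.34). Twist1, a factor of mesenchyme, read 5.74, 6.08 and 5.89 against 9.59, 9.84 and 9.15 (3.62 ± 0.26). Msx1's other probe set rose by 1.28 and that of Msx2 was not called (0.43). Msx2 (3.26) and Meis2 (3.00) followed. The single fall was that of Tcf15 (-1.97 ± 0.22), which marks somites in the embryo and is also expressed in stem cells that leave the naive state. Meis1 was not called by its brightest probe set, while another rose by 2.57.

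Mesenchymal genes rose in 12 of 17 measured members (median 1.68), and 1 fell, or 2 without day 0 replicate 1. Snai2 (Slug), a repressor of epithelial genes, read 5.30, 5.19 and 5.32 at day 0 and 10.95, 11.47 and 11.57 at day 5 (66.7-fold, 6.06 ± 0.21, adjusted p = 5.76e-14). Cdh2 (N-cadherin) read 7.86, 5.62 and 7.51 against 10.80, 10.97 and 10.51 (3.76 ± 0.63, or 3.08 without day 0 replicate 2). Tgfb2 rose by 3.69. The calcium-binding protein S100a6 fell by 1.81, and fibronectin (Fn1), named after its values were seen, differed by 0.02 ± 0.25. E-cadherin (Cdh1), chosen in the same way, read 11.98, 11.18 and 10.94 at day 0 and 11.33, 11.02 and 9.24 at day 5 (-0.84, 95% interval -1.58 to -0.09, adjusted p = 0.0853), so the groups overlapped. It was called lower without day 5 replicate 1 (-1.24, adjusted p = 0.013) or replicate 2 (-1.08, 0.0495).

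Epithelial genes were not lower as a group: 8 of 22 measured members rose and 2 fell (median 0.22). The 8 become 5 without day 0 replicate 3 and 5 without day 5 replicate 2, and the 2 become 1 without day 5 replicate 3. The rises were led by the simple-epithelium keratins. Krt8 read 9.0, 8.18 and 7.11 against 13.23, 13.27 and 13.34 (36.3-fold, 5.18 ± 0.38), and its partner Krt18 read 8.33, 8.32 and 6.77 against 12.89, 13.03 and 12.74 (5.08 ± 0.27). The desmosomal genes Dsc2 (2.73) and Dsp (2.35) rose too. Spint2 fell by 0.73, and the fall of Cldn4 (-1.03) was lost without day 0 replicate 2 (adjusted p = 0.13) and without day 5 replicate 3 (0.189).

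Matrix genes rose in 16 of 28 measured members (median 0.61). Fbn2, the fibrillin of embryonic microfibrils, read 4.98, 4.76 and 4.58 at day 0 and 9.36, 10.09 and 9.50 at day 5 (29.4-fold, 4.88 ± 0.16, adjusted p = 4.83e-14). Has2, which makes the hyaluronan of cardiac jelly, read 6.93, 4.79 and 4.77 against 10.05, 9.99 and 10.11 (4.55 ± 0.38, or 5.27 without day 0 replicate 1). The basement membrane collagen Col4a1 rose by 2.68 and the fibrillar Col3a1 by 2.48, the latter from 4.88, 4.61 and 4.95 to 7.37, 9.18 and 5.34, with day 5 replicate 3 hardly above day 0. Its rise was 3.46 without that array and 1.54 without day 5 replicate 2. Col1a1 rose by 1.20 ± 0.22. The 2 falls, Lama1 (-1.32, or -2.08 without day 0 replicate 1) and Lamc1 (-0.60), overlapped between the groups. Neither was called without day 0 replicate 3, and 1 of the 2 remained called without day 0 replicate 2, day 5 replicate 1 or day 5 replicate 3.

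Of the enzymes and chaperones that process collagen, some of which need ascorbic acid, 7 of 17 measured members rose and 1 fell, or 2 without day 0 replicate 1 (median 0.20). Serpinh1 (Hsp47), the collagen chaperone, read 7.93, 8.57 and 8.94 against 10.86, 11.10 and 11.30 (2.61 ± 0.27). The prolyl 3-hydroxylase P3h2 rose by 1.83 and the cross-linking oxidase Loxl1 by 1.74. Pcolce, which enhances procollagen cleavage, fell from 9.11, 10.64 and 11.03 to 8.09, 8.25 and 7.41 (-2.34 ± 0.39). Both directions thus stood within 1 pathway, and the groups were separate in each of these genes.

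Endoderm genes were present beside the mesoderm. Of the definitive endoderm list 8 of 14 measured members rose (5 without day 5 replicate 1) and 1 fell, or 0 without day 0 replicate 3 or day 5 replicate 3 (median 1.08). Of the extraembryonic endoderm list 13 of 23 rose (8 without day 0 replicate 3, 7 without day 5 replicate 2) and 1 fell, or 2 without day 0 replicate 1 or 3 (median 0.49). Sox17 and Foxa2 stand in both lists. Sox17, a factor of both kinds of endoderm, read 6.60, 6.13 and 6.75 at day 0 and 8.60, 8.78 and 8.27 at day 5 (2.06 ± 0.17, adjusted p = 2.39e-08). Its other probe set rose by 5.34 ± 0.32, from a mean of 4.87 to 10.21. Cxcr4, a chemokine receptor, read 4.97, 4.79 and 5.20 against 8.05, 8.05 and 9.25 (3.46 ± 0.37). Spink1, of gut endoderm, read 7.12, 6.23 and 7.61 against 11.39, 11.87 and 9.41 (3.90 ± 0.48, or 4.64 without day 5 replicate 3). The groups were separate in each gene, and day 5 replicate 3 stood apart from the others in the last pair, in opposite directions.

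Foxa2, the pioneer factor of endoderm and axial mesoderm, read 6.46, 6.40 and 6.12 against 9.20, 9.21 and 7.80 (2.41 ± 0.77, adjusted p = 0.0226). Its call was lost without day 0 replicate 3 (adjusted p = 0.0598), day 5 replicate 1 (0.0792) or day 5 replicate 2 (0.084), although the groups did not overlap. Of visceral endoderm genes, Afp differed by 0.23 (95% interval -0.28 to 0.75), Dab2 rose by 2.58 and Pth1r by 2.72, and the endocytic receptor Lrp2 fell by 1.99. The single fall in the definitive list was Trh (-0.98), lost without day 0 replicate 3 (adjusted p = 0.0733) or day 5 replicate 3 (0.0569).

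Trophoblast-list genes rose in 6 and fell in 4 of 17 measured members (median 0.06). Plac1 read 6.68, 6.41 and 6.31 at day 0 and 9.89, 10.19 and 11.05 at day 5 (15-fold, 3.91 ± 0.28, adjusted p = 2.58e-09). Cdx2, which specifies trophoblast and later the posterior embryo, read 6.38, 6.25 and 6.24 against 9.67, 9.23 and 9.96 (3.33 ± 0.32), and Gata3 rose by 2.37. The defining placental genes Tpbpa (-0.01), Elf5 (0.23) and Tfap2a (-0.06), named after their values were seen, did not pass. Tfap2c, shared by trophoblast and germ cells, fell by 3.10 ± 0.68.

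Of the neural list 3 of 24 measured members rose and 3 fell, or 5 without day 5 replicate 1 (median -0.11), near the 15.9% and 14% over all genes. The early neural factor Sox1 differed by -0.14 (95% interval -0.39 to 0.12), while another of its probe sets fell by 1.72 from 3.85, 6.25 and 5.94 to 3.54, 3.71 and 3.63. Pax6 differed by 0.07 (-0.18 to 0.33), and another of its probe sets fell by 0.69. The risers were Sox4 (2.58), Sox11 (2.49) and Zic1 (1.62), the first pair of which are also expressed in mesenchyme. Neurod1, a neuronal factor, read 9.72, 7.33 and 7.37 at day 0 against 5.18, 5.24 and 5.34 (-2.89 ± 0.49), with day 0 replicate 1 highest and a difference of -2.10 without it.

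Markers of cells that the culture should lack were mostly not called, but some moved strongly. Other probe sets of Laptm5 differed by -4.52 to -0.27, and that of Pdgfrb rose by 5.01, against 1.12 for its brightest. In the white blood cell list 0 of 11 members rose and 2 fell (Cd68 by 1.79 and Laptm5 by 1.43, list median -0.14), while Ptprc (-0.14, 95% interval -0.42 to 0.14) and Csf1r (0.11, -0.15 to 0.37) did not pass. In the fibroblast list 3 of 11 rose, all of them matrix or mesenchymal genes (Postn, Col1a1 and Pdgfrb), and 0 fell, or 1 without day 0 replicate 1 (median 0.24). Thy1 was not called (-0.56, -1.09 to -0.03) and fell without day 0 replicate 1 (-0.81, adjusted p = 0.0176). Of 11 skeletal muscle genes 0 rose, or 1 without day 0 replicate 1, and only Mylpf fell (-3.46, or -4.18 without day 0 replicate 1), a count that is 3 without day 0 replicate 2 and 2 without day 5 replicate 1 (median -0.07). Of 13 genes often used as standards, 3 rose and 2 fell (median 0.04), with Hprt falling by 1.33 ± 0.16 and B2m rising by 1.17 ± 0.25.

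In 10 instances a list had 0 calls in a direction. At limma's unadjusted p under 0.05 the count was still 0 for rises in both pluripotency lists and in the germ cell, 2-cell and white blood cell lists, and for falls in the cardiac progenitor and cholesterol lists. It was 2 for falls in the fibroblast list, 1 for falls in the smooth muscle list and 1 for rises in the skeletal muscle list.

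**Figure D3:**
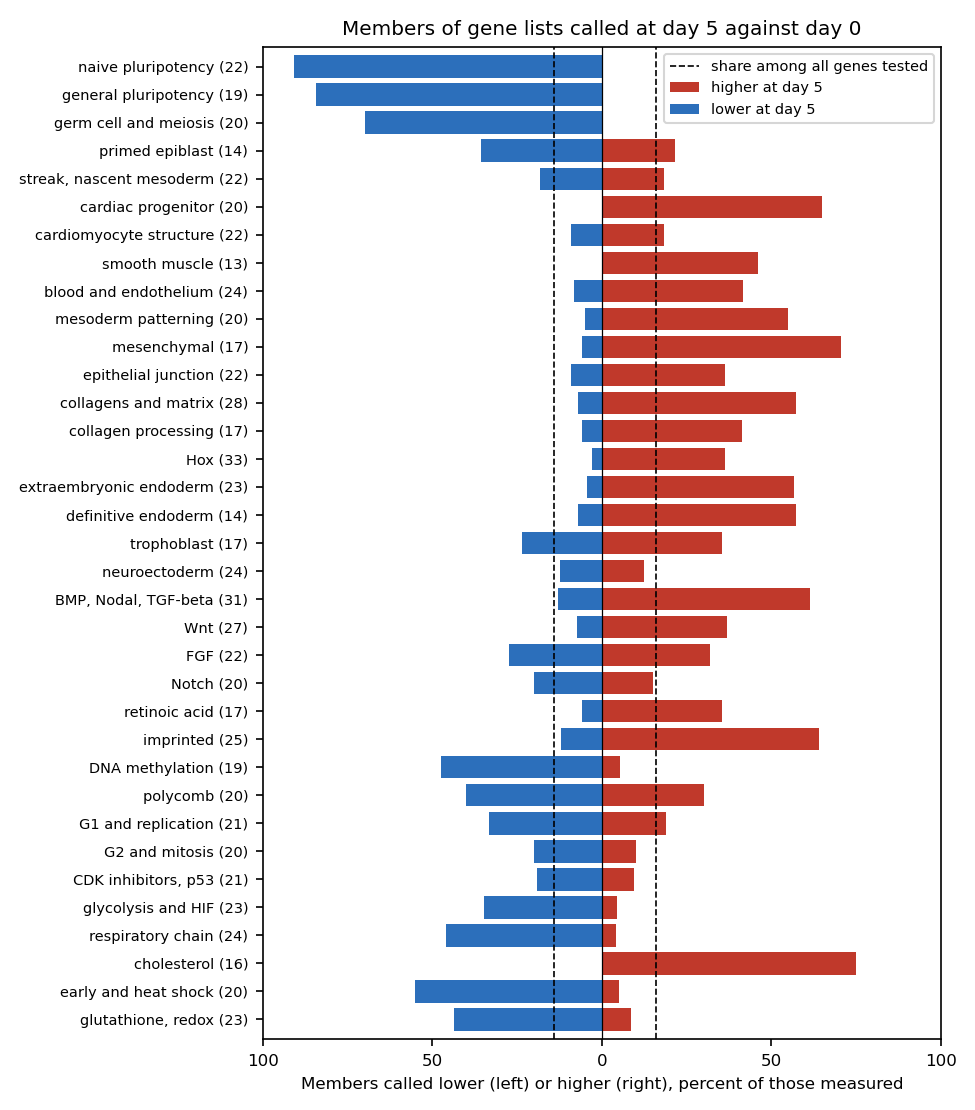
Share of each gene list called lower (blue, to the left) or higher (red, to the right) at day 5, in percent of its measured members, whose number stands in brackets. Dashed lines mark the shares over all 18193 genes, 15.9% higher and 14% lower. The pluripotency and germ cell lists extend almost only to the left, and the cholesterol, mesenchymal and cardiac progenitor lists only or mostly to the right.

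In signalling, the ligands Nodal and Gdf3 fell while Bmp2 and Bmp5 rose, and Bmp4 was not called. All belong to the TGF-beta family, Nodal sustaining pluripotency and streak formation and BMPs patterning mesoderm. Of 31 measured members of the family's list, 19 rose and 4 fell (median 1.03), and leaving out any array gave 19 or 20 rises and 4 falls. The 4 falls were Nodal, its inhibitors Lefty1 (-2.37, or -1.78 without day 0 replicate 1) and Lefty2 (-2.65), and Gdf3 (-2.98). Nodal read 10.74, 9.80 and 9.82 at day 0 and 6.92, 6.75 and 6.63 at day 5 (10.2-fold lower, -3.35 ± 0.21), with 10.50 still at day 3. Among ligands that rose, Bmp5 read 4.72, 4.37 and 4.68 against 9.39, 9.71 and 9.47 (30.6-fold, 4.93 ± 0.14), beside Bmp2 and Tgfb2. Bmp4, named after its values were seen, differed by 0.70 (95% interval -0.45 to 1.86), with day 0 replicate 1 at 7.23 and the other day 0 arrays at 10.31 and 11.00. Without that array its difference was -0.44 (adjusted p = 0.156), and without day 0 replicate 3 it was called higher (1.45, adjusted p = 0.0375).

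Several receptors and targets of the family rose. The receptor genes Bmpr2 (2.16), Bmpr1a (1.51) and Tgfbr1 (1.46) were all called higher. Smad6, an inhibitor that BMP signalling induces, read 6.22, 6.51 and 5.77 against 9.69, 9.96 and 10.81 (3.99 ± 0.32). Id3, another BMP target, read 9.37, 7.44 and 7.14 against 10.86, 10.86 and 11.01 (2.93 ± 0.37). Neither gene overlapped between groups, and in Id3 day 0 replicate 1 was the nearest to day 5 (3.62 without it). Another target, Id4, was not called (-0.44, 95% interval -0.94 to 0.06), and 2 of its other probe sets fell, by 1.13 and 0.84. The secreted antagonists Nog (-0.01), Chrd (0.04) and Grem1 (-0.02), named after their values were seen, did not pass.

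FGF genes went both ways. Of 22 measured members 7 rose and 6 fell (median -0.06). Fgf4, the ligand that stem cells make, read 9.48, 10.49 and 9.97 at day 0 and 5.43, 5.56 and 5.45 at day 5 (22.6-fold lower, -4.50 ± 0.49). The targets and feedback inhibitors Spry4 (-3.28), Etv5 (-2.71), Dusp6 (-1.68) and Etv4 (-1.44) fell as well. The receptors Fgfr3 (2.37 ± 0.23), Fgfr2 (1.87) and Fgfr1 (1.55) rose, as did the ligand Fgf3 (1.79). Not every feedback gene fell, since the phosphatase Dusp4 rose by 1.80. The groups did not overlap in Fgf4, Spry4, Fgfr3 or Dusp4. Fgfr3's other probe set was not called (0.28).

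Wnt genes rose in 10 of 27 measured members (median 0.07), and 2 fell, a count that is 1 without day 0 replicate 1, day 5 replicate 1 or day 5 replicate 2 and 0 without day 5 replicate 3. Rspo3, an enhancer of Wnt signalling, read 5.20, 4.73 and 4.58 at day 0 and 8.78, 8.77 and 8.96 at day 5 (16-fold, 4.0 ± 0.38), and its other probe set was not called (0.51, adjusted p = 0.0584). Wnt5a, a non-canonical ligand, read 5.54, 5.51 and 5.05 against 8.19, 8.34 and 8.05 (2.83 ± 0.14), and the inhibitor Dkk1 rose by 3.08. The falls were Fzd5 (-1.97, or -2.62 without day 0 replicate 1), lost without day 5 replicate 3 (-1.26, adjusted p = 0.0573), and Wnt8a (-0.76), lost without any of those 4 arrays (0.0699 to 0.229). In the Notch list 3 of 20 rose and 4 fell (median -0.20). Hey2, a cardiovascular Notch target, read 3.94, 4.13 and 3.93 against 7.34, 7.95 and 7.83 (3.71 ± 0.16), Notch2 rose by 2.23 (other probe set -0.07, not called), and the DNA-binding partner Rbpj fell by 1.54. In the retinoic acid list 6 of 17 rose, or 4 to 5 with any 1 array left out (median -0.10). In that list 1 fell, or 2 without day 0 replicate 1. Cyp26a1, which degrades retinoic acid, read 7.30, 6.79 and 6.55 against 9.82, 9.98 and 9.20 (2.79 ± 0.52).

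Hox genes, which assign position along the body axis, were higher in 12 of 33 measured members, with 1 fall and a median of 0.17. Hoxd1 read 3.96, 3.78 and 3.82 at day 0 and 8.20, 8.49 and 8.65 at day 5 (24.1-fold, 4.59 ± 0.18, adjusted p = 2.4e-13). Hoxb1 read 5.19, 5.08 and 5.77 against 8.51, 8.51 and 8.76 (3.25 ± 0.18), and Hoxb2 rose by 2.88. In each of these genes the lowest day 5 array lay more than 2 log2 units above the highest day 0 array. Hoxc8 read 3.53, 3.81 and 3.65 against 5.55, 8.16 and 5.14 (2.62 ± 0.45), with day 5 replicate 2 highest and a rise of 1.68 without it.

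By cluster the b and d genes rose most. In the b cluster Hoxb1, Hoxb2, Hoxb4, Hoxb5 and Hoxb6 were called higher, and Hoxb3, not called by its brightest probe set (0.20 ± 0.13), had another that rose by 2.95 ± 0.17 (adjusted p = 1.03e-10). In the d cluster Hoxd1, Hoxd8, Hoxd9 and Hoxd10 were called higher, and in the c cluster Hoxc4 and Hoxc8. Hoxa5 was the only measured member of the a cluster called higher, by 0.42 ± 0.14, and it lost that call without any array but day 0 replicate 1 or day 5 replicate 2 (adjusted p = 0.0522 to 0.119). Of the genes numbered 11 to 13 none rose, and Hoxc13 fell by 0.63 ± 0.12.

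**Figure D4:**
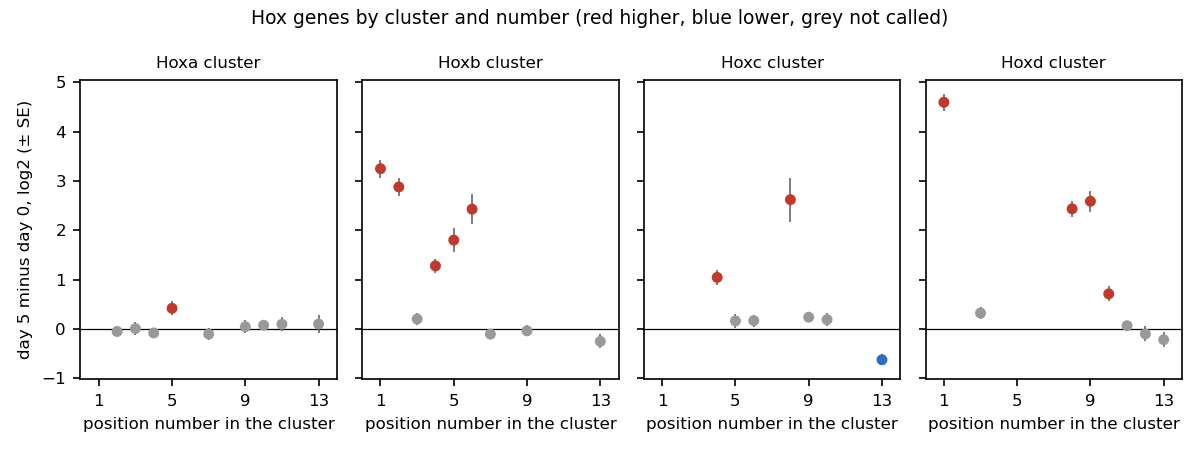
Difference of each Hox gene, day 5 minus day 0 in log2 (y axis, bars are the standard error), by its number in the cluster (x axis), 1 panel per cluster. Red points were called higher, blue lower and grey not called. The b and d clusters hold the 3 largest rises (4.59, 3.25 and 2.88), and the a cluster lies near 0.

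Imprinted genes, expressed from 1 parental copy and many of them regulators of growth, rose in 16 of 25 measured members and fell in 3 (median 1.20). Igf2, the fetal growth factor, read 7.17, 6.75 and 6.99 at day 0 and 13.26, 13.38 and 13.37 at day 5 (82.5-fold, 6.37 ± 0.14, adjusted p = 4.1e-17). Its group means were 7.34 and 7.35 at days 2 and 3, and a second probe set rose by 3.34. Asb4 read 4.72, 5.17 and 4.41 against 9.30, 10.53 and 10.47 (5.33 ± 0.33), and Peg3 read 10.34, 10.03 and 8.73 against 13.32, 13.34 and 13.19 (3.58 ± 0.40). These groups stood at least 2 log2 units apart at their nearest arrays. Ndn rose by 3.75, or 4.43 without day 0 replicate 1. The receptor Igf2r, expressed from the other parental copy and named after its values were seen, rose by 2.34 ± 0.24. Grb10 fell by 1.58 ± 0.47, a call lost without day 0 replicate 1 (-0.83, adjusted p = 0.0946), which read 11.73 against 9.07 and 9.84, and without day 5 replicate 3 (adjusted p = 0.0522).

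Genes of the primitive streak, where mesoderm and endoderm arise, went both ways. Of 22 measured genes of streak and nascent mesoderm 4 rose and 4 fell (median 0.12), against 15.9% and 14% over all genes, the rises being Aplnr, Lhx1 (3.60), Snai1 (1.11) and Evx1 (0.83). A fit of the 6 arrays alone gave 6 rises and 4 falls in this list, and fewer calls in several others, given further below. Of 14 genes of the primed epiblast 3 rose (1 without day 0 replicate 3) and 5 fell (median -0.54). Pou3f1 read 9.99, 5.83 and 6.28 at day 0 and 4.92, 4.82 and 5.13 at day 5 (-2.41 ± 0.71), and without day 0 replicate 1 it was not called (-1.10, adjusted p = 0.0601), while it fell by 3.18 without day 0 replicate 2. Its other probe set was not called (-0.85). The 3 rises were Lef1 (1.65, or 2.31 without day 0 replicate 1), Fgf15 (1.30) and Sall2 (2.03), of which Sall2 overlapped between the groups and rose by 3.17 without day 0 replicate 1. Without day 0 replicate 3 neither Fgf15 (adjusted p = 0.0571) nor Sall2 (0.0585) passed, Fgf15 was also lost without day 5 replicate 3 (0.0523) and Sall2 without day 0 replicate 2 (0.0836).

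Days 2 and 3 show what the end points hide. A set of 927 genes differed at a middle day from both ends in the same direction while day 5 and day 0 were not called apart, 499 of them with a peak and 428 with a trough. These contrasts share arrays, so the count is a description. It was 2096 with array weights, which give day 0 replicate 1 the lowest weight, 1371 without that array and 633 to 867 without another one. Eomes, the T-box factor that starts mesendoderm, had group means of 6.72, 7.73, 11.90 and 7.17 at days 0, 2, 3 and 5. Its net difference was 0.45 (95% interval -0.44 to 1.35), against 5.18 ± 0.43 from day 0 to day 3 and -4.73 ± 0.43 from day 3 to day 5. Fgf5, a growth factor of the primed epiblast, read 7.51, 5.21 and 5.35 at day 0 and 6.20, 6.08 and 5.57 at day 5, with means of 9.07 and 10.65 between. The end groups overlapped, and both middle groups lay above all of their values.

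Fst, which binds activin, peaked at 11.21 at day 3 between 5.94 and 5.77, and Fgf8 at 9.67 between 4.98 and 5.50. Mixl1 read 10.93, 10.86 and 7.21 at day 3 and Sp5, a Wnt target, read 10.51, 10.39 and 6.56, so day 3 replicate 3 was far below the others in both. Nrcam peaked at 8.54. Troughs were found in Mme, a surface peptidase, which fell from 8.65 to 4.01 at day 2 and returned to 8.11, in Epas1 (9.49, then 6.64 at day 3 and 10.27) and in Anxa2 (10.37, then 7.53 at day 2 and 10.75). Anxa2 was called higher at day 5 without day 0 replicate 2 (1.13, adjusted p = 0.00293), which read 11.87 against 9.68 and 9.56.

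**Figure D5:**
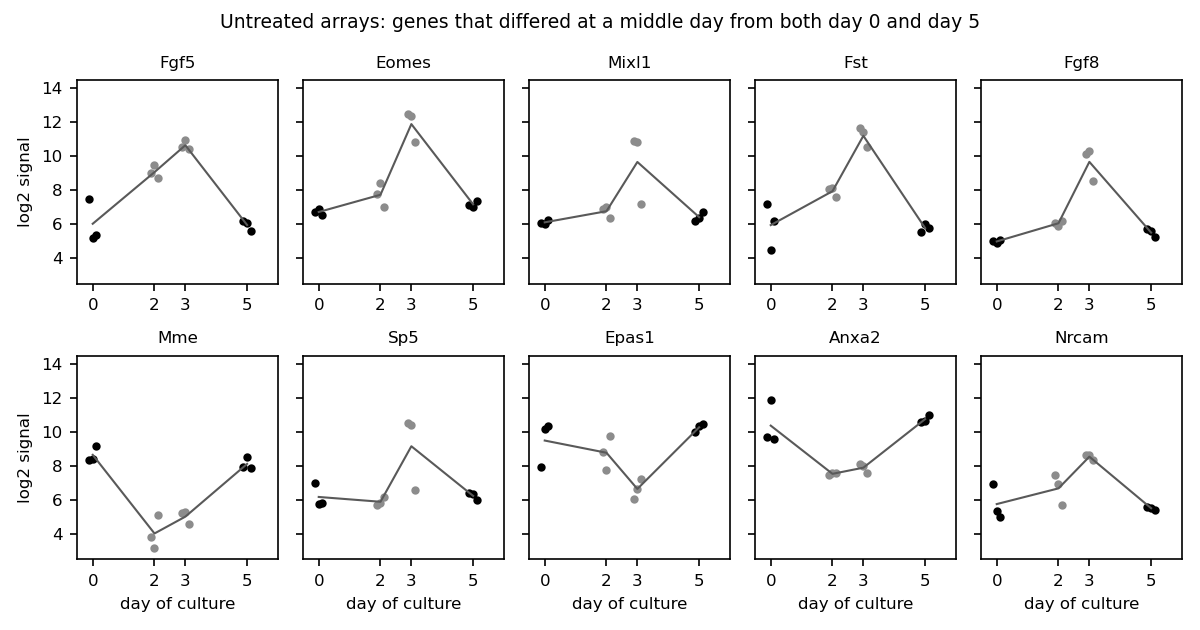
Log2 signal (y axis) in untreated arrays by day of culture (x axis) for the 10 genes that lay farthest from both end points at day 2 or 3 while not called between day 0 and day 5. Points are single arrays, black for days 0 and 5 and grey for days 2 and 3, and lines join group means. Eomes, Fgf5, Fgf8 and Fst peak at day 3, and Mme and Anxa2 are lowest at day 2.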

How the data were processed

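Values are the deposited log2 signals that the authors made with RMA, per the submitters' processing notes (version not given in the sources used here). That method subtracts background, gives the single probes of all arrays 1 distribution and then combines each probe set's probes. The deposited probe set values still differed between arrays, with array medians from 6.05 to 6.19. Of 45101 probe sets, 932 with several gene symbols, 9211 with none and 64 AFFX controls were left out. The brightest probe set over 21 arrays represented each of 18193 genes. Symbols come from the platform annotation, checked by Entrez identifier against RefSeq. Arrays give no read depth, and their number limits precision.

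The 7 groups were fitted with limma 3.58.1 in R 4.3.3 (lmFit, eBayes with an intensity trend), and the day 5 minus day 0 contrast was adjusted by Benjamini-Hochberg, with calls at an adjusted p under 0.05. The labels call the 3 arrays of a group biological replicates. Replicate numbers were not treated as pairs: deviations of same-numbered arrays correlated at 0.253, 0.131 and 0.072. In simulated data over 18193 genes, 50 genes were changed at each fold, with independent noise and 1 spread per gene. There the day 5 minus day 0 fit recovered 46% of the genes changed 1.5-fold, 92% at 2-fold, 98% at 3-fold and 96% at 4-fold. It made 7 false calls among 173. In the real data 29.9% of genes were called and day 0 replicate 1 stood apart, so these rates need not hold for them.

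Named genes are the 15 largest rises and falls with separate groups (clone names left out), up to 4 called members of each of 40 lists in either direction, fixed markers and the 10 genes farthest from both ends. Further list members were named for their role after their values were seen. The members and lists were chosen with earlier results of these data known. Alternatives were the 6 arrays alone, a replicate block, repeated quantile normalisation, median centring, no trend, array weights, a filter at a mean of 6, averaged probe sets, single probe sets, a test beyond 1.5-fold and leaving out each array.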

Additional observations from a re-analysis of the deposited data

How the results depend on the processing

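Against 2890 higher, 2549 lower and 927 changed-and-back genes, leaving out each array in turn gave 2353 to 2840, 2106 to 2863 and 633 to 1371. Without day 0 replicate 1, 2557 of the 2840 higher and 2224 of the 2863 lower genes were shared with the full set. The 6 arrays alone gave 1987 higher and 1433 lower, array weights (0.214 for day 0 replicate 1, 0.677 to 1.104 for the others) gave 2096 changed and back, and a test for changes beyond 1.5-fold gave 878 higher and 574 lower. Single probe sets gave 5057 and 4326 of 34945. With the 6 arrays alone the imprinted, matrix and epithelial lists had 0 falls, against 3, 2 and 2 in the full fit. Falls numbered 3 in glycolysis and hypoxia (full fit 8), 3 in G1 and replication (7) and 6 in the respiratory chain (11). Rises were 9 in extraembryonic endoderm (13) and 11 in the matrix list (16). Rises went up in the streak (6 against 4), Wnt (11 against 10) and general pluripotency lists (1 against 0). The replicate block gave 3100, 2764 and 1100, and changed no count by over 1.5 times. Repeated quantile normalisation moved the higher share of calls from 53.1% to 47.3%. No named gene that was called reversed under any alternative run. Uncalled ones did change sign, 8 of them without day 0 replicate 1. Among these were Fgf5 (-0.07 with all arrays, 0.67 without it) and Otx2 (-0.60 and 0.37). Of 224 named calls, 31 were lost in at least 1 leave-one-out fit. The number of arrays and the spread of day 0 replicate 1 limit what small differences could be called, and the cause of the moved counts was not tested.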

Other observations

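In the G1 and replication list 4 of 21 measured members rose and 7 fell (median -0.21). Ccnd2 (cyclin D2) read 7.42, 6.36 and 6.85 at day 0 and 9.71, 10.12 and 10.00 at day 5 (3.07 ± 0.26), while Ccne1 (cyclin E1) read 10.18, 10.05 and 10.04 against 8.56, 8.85 and 8.68 (-1.39 ± 0.13). The CDK inhibitor Cdkn1c (p57) rose by 2.88. In the G2 and mitosis list 2 of 20 rose and 4 fell (median -0.10), against 15.9% and 14% over all genes. The rises were 1 without day 0 replicate 3, day 5 replicate 2 or day 5 replicate 3, and 4 without day 5 replicate 1. Mki67, the proliferation antigen, rose by 0.70 ± 0.13 and Aurkb by 0.41. The falls were Nek2 (-0.70), Aurka (-0.68), Bub1b (-0.64) and Ube2c (-0.28). Ube2c was not called without day 0 replicate 1 (-0.27, adjusted p = 0.0619) or day 0 replicate 2 (0.0854). It was also lost without day 5 replicate 1 (0.127) or day 5 replicate 2 (0.0748). In the list of CDK inhibitors and p53 targets 2 of 21 rose and 4 fell (median -0.03), which became 5 and 1 without day 0 replicate 1. The rises numbered 4 without day 0 replicate 2, and the falls 2, 1 and 2 without day 5 replicates 1, 2 and 3.

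Cholesterol synthesis genes rose in 12 of 16 measured members and fell in 0 (median 1.02). Hmgcs1, at the head of the pathway, read 10.20, 11.12 and 10.32 at day 0 and 12.31, 12.49 and 12.73 at day 5 (3.9-fold, 1.96 ± 0.18, adjusted p = 8.34e-08), and stood at 11.87 already at day 2. Sc5d read 6.58, 6.81 and 6.72 against 8.45, 8.64 and 8.56 (1.85 ± 0.17). Both groups were separate in both genes. In glycolysis and hypoxia response 1 of 23 rose, or 2 without day 0 replicate 1 or 2, and 8 fell (4 if day 0 replicate 2 or day 5 replicate 1 is left out, 5 if day 5 replicate 2 is, median -0.34). The platelet phosphofructokinase Pfkp read 9.89, 12.08 and 11.61 against 7.44, 7.41 and 8.52 (-3.40 ± 0.40, or -4.05 without day 0 replicate 1). Pdk1, which keeps pyruvate from the mitochondrion, fell by 1.95.

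Respiratory chain genes fell in 11 of 24 (7 without day 0 replicate 3, 6 without day 5 replicate 1), and 1 rose, or 0 without day 0 replicate 1 or day 5 replicate 3 and 2 without day 0 replicate 3. The changes were small (median -0.17), with Cox7a1 lowest at -1.35. Early response and heat shock genes fell in 11 of 20 (median -0.67). Hspb1, a small heat shock protein, read 11.73, 13.14 and 13.37 against 8.77, 8.69 and 8.65 (-4.04 ± 0.28), and Fos fell by 1.80. The single rise, of Jun (1.54, or 2.31 without day 0 replicate 1), overlapped between the groups and was lost without day 0 replicate 2 or 3 or day 5 replicate 1 or 2 (adjusted p = 0.115 to 0.173). Without day 5 replicate 3 the list had 2 rises. Glutathione and redox genes fell in 10 of 23 and rose in 2 (median -0.28), with the glutathione transferase Gsta4 falling by 2.06 ± 0.15 and the peroxiredoxin Prdx2 rising by 1.04 ± 0.17.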
